A study of Mus musculus with 15 samples.

Results

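The integrins, selectins and leukocyte adhesion molecules described here are all genes whose symbol names an integrin alpha or beta subunit, a selectin or an Icam, together with Vcam1, Madcam1, Glycam1, Alcam and Mcam. They were chosen by symbol, without a filter on measured values, but with earlier results of these data known. The array's annotation lists 36 of them under a single symbol, of 19938 genes in all: 18 alpha subunits, 8 beta subunits, 4 Icam genes, the selectin Sele and 5 other adhesion molecules. Selp also matches the rule by name, was not listed under a single symbol and was not analysed here. Integrins are heterodimers of an alpha and a beta subunit through which cells hold on to matrix proteins and to counter-receptors on other cells. Selectins bind carbohydrate ligands and let leukocytes roll along the vessel wall, and the immunoglobulin-type molecules of the Icam family, Vcam1 and Madcam1 are the endothelial counter-receptors on which leukocyte integrins then take hold. Endothelial cells use their own integrins, among them laminin, collagen and fibronectin receptors, to stay anchored to the basement membrane.

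The cells came from Tie2-GFP mice of the FVB strain, aged 8 to 12 weeks; the transgene places green fluorescent protein (GFP) under the promoter of Tek, the gene of the angiopoietin receptor Tie2. GFP-positive microvascular endothelial cells were sorted from pools of 6 brains, 4 hearts or 2 livers, with males and females in equal number, and each tissue has 5 such pools, 1 array each. Digestion lasted 60 min in every tissue but used collagenase with DNase and then trypsin for brain, collagenase for heart and dispase at room temperature for liver. Effects of tissue, of digestion and of pool size thus cannot be told apart. The Tie2 promoter is also known to be active in some blood cells, so the sort does not by itself leave endothelium alone.

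Values are log2 expression levels normalized together over the 15 arrays, whose medians over all genes lay between 5.98 and 6.11. Such values have no true zero and depend on each probe set, so levels are compared between tissues and never between genes. The mean of 12 endothelial markers was 10.47 to 10.78 in the brain arrays, 10.52 to 10.64 in the heart arrays and 10.55 to 10.76 in the liver arrays. These markers include Tek, whose promoter drove the sort, and their mean shows similar levels in the arrays and not purity. Single markers differed, Flt1 averaging 12.43 (brain), 11.62 (heart) and 10.91 (liver), and Kdr 10.85 (brain), 11.50 (heart) and 11.83 (liver). Markers of other cells differed between tissues as well. The mean of 14 cardiomyocyte markers was 5.84 to 6.04 in the brain arrays, 9.25, 8.34, 8.87, 7.73 and 7.74 in the heart arrays and 5.58 to 5.81 in liver. The mean of 15 macrophage and microglia markers was 5.31 to 5.48 in the brain arrays, 5.39 to 5.65 in the heart arrays and 8.00, 6.12, 8.46, 8.13 and 5.76 in the liver arrays. In all, 10 of 11 hepatocyte markers were higher in liver than in both other tissues, with a list mean of 7.11 to 7.64 in liver. Of all genes, 10.4% were higher in liver than in both, the share to set beside such marker counts here and below. The mean of 8 neuron and glia markers was 5.31 to 5.64 in the brain arrays, 5.28 to 5.38 in the heart arrays and 5.06 to 5.40 in the liver arrays. In RNA from sorted bulk cells, fewer cells of a type and less RNA per cell cannot be told apart.

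Each gene was compared between brain and heart, brain and liver, and heart and liver with limma, and a difference is called changed where its p, adjusted over all 19938 genes, is under 0.05. Differences are log2 values of the first tissue minus the second, with their standard error, a fold is that of the higher over the lower tissue, and means are given with the SD over 5 arrays. Of the 36 adhesion genes, 19 differed in at least 1 comparison, where 37.8% of all genes did. Brain and heart differed in 12 members (15.4% of all genes), brain and liver in 15 (25.1%), and heart and liver in 13 (27.8%). In brain, 4 members were higher and 8 lower than in heart (8.29% and 7.11% of all genes), and 7 higher and 8 lower than in liver (11.1% and 14.0%). The 8 lower than in heart were 5 without brain replicate 3 or 5 or heart replicate 2 or 4. The 8 lower than in liver were 4 without liver replicates 1, 3 and 4, which carried the most macrophage markers. This omission keeps only liver replicates 2 and 5, so fewer arrays alone can cost calls. For Itga5, brain minus liver moved from -0.44 to -0.56 while its call was lost (adjusted p = 0.0696). The part of macrophages in these counts was not tested. In heart, 7 were higher and 6 lower than in liver (11.5% and 16.3%). Brain was higher than both other tissues in 4 members, Alcam, Itga3, Itga4 and Vcam1 (4.70% of all genes). Heart was higher than both in 5, Itga1, Itga2, Itga6, Itgb5 and Mcam (3.73% of all genes), a count that was 3 without brain replicate 3 or 5 or heart replicate 1, 2 or 4, and 2 without heart replicates 1 and 3 together. Liver was higher than both in 6, Itga8, Itga9, Itgal, Itgb2, Itgb3 and Itgb7, which is 16.7% of the members and is to be read against 10.4% of all genes. Without liver replicates 1, 3 and 4 the count was 4, with the same loss of arrays. The share of all genes in that setting is not given here. Brain was lower than both in Itga5, Itga9 and Mcam (2.82% of all genes), and liver was lower than both in Itga1, Itga3 and Itga6 (5.64%).

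Heart was lower than both other tissues in 0 members by limma's adjusted p (3.27% of all genes), and in 2, Alcam and Vcam1, at an unadjusted p under 0.05. The median log2 difference over the 36 members was -0.0014 for brain minus heart, 0.11 for brain minus liver and 0.084 for heart minus liver. Over all genes it was -0.028, -0.0022 and 0.032 for the same comparisons, and the members moved in both directions in each. In size, without regard to sign, the members' median difference was 0.20 for brain against heart, 0.30 for brain against liver and 0.20 for heart against liver, where that of all genes was 0.13, 0.14 and 0.16. Counts of members whose arrays did not overlap at all were 11, 9 and 11 in the 3 comparisons, beside 12.8%, 19.0% and 20.6% of all genes.

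**Figure D1:**
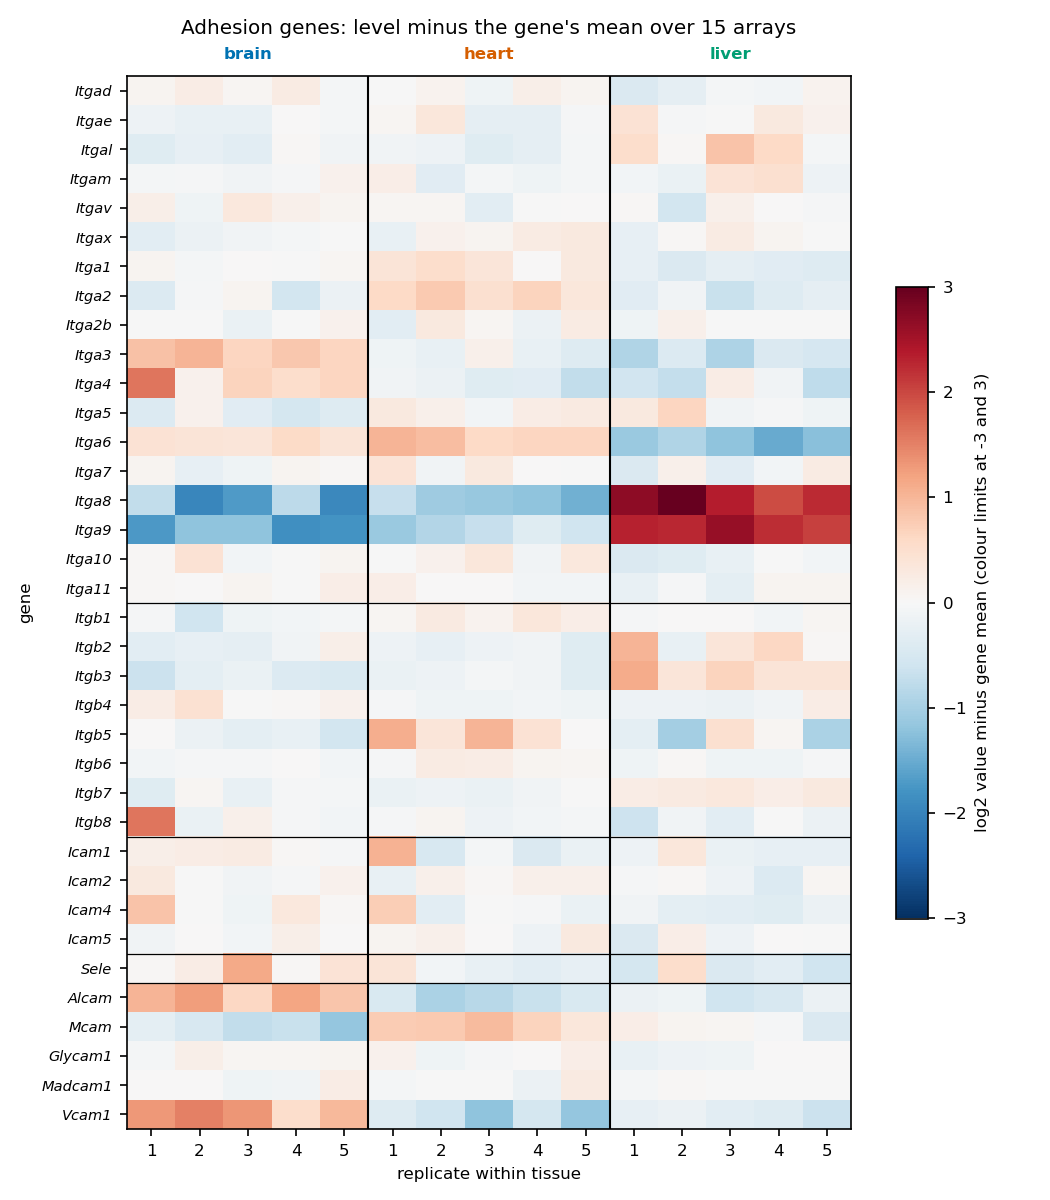
Log2 level of each of the 36 adhesion genes in the 15 arrays (columns, replicates 1 to 5 of brain, heart and liver), with the gene's own mean over the arrays subtracted and horizontal lines between the gene groups. Itga8 and Itga9 stand out in the liver columns, Vcam1 and Alcam in the brain columns, and Itga6 is low in liver.

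The largest differences belonged to Itga8 and Itga9, a pair of beta 1 partners that bind matrix ligands, alpha 8 nephronectin and alpha 9 tenascin C, Emilin1 and the fibronectin EDA segment. Itga8 read 6.04, 4.82, 5.07, 6.00 and 4.84 in brain, 6.09, 5.70, 5.64, 5.56 and 5.34 in heart, and 9.47, 10.14, 9.13, 8.73 and 9.02 in liver. Every liver array lay far above every brain and heart array, and the brain and heart arrays overlapped. Its mean was 5.35 ± 0.62 (brain), 5.67 ± 0.27 (heart) and 9.30 ± 0.54 (liver). That is -3.94 ± 0.27, 15.4-fold, adjusted p = 2.74e-09 for brain minus liver and -3.63 ± 0.27, 12.4-fold, adjusted p = 1.17e-08 for heart minus liver, while brain minus heart was -0.31 (adjusted p = 0.517). In brain, arrays 1 and 4, at 6.04 and 6.00, stood above the other three, which read 4.82 to 5.07; they are also the 2 brain arrays with the highest mean of 13 pericyte and smooth muscle markers, 7.81 and 6.88, against 6.08 to 6.70, and the part of those cells was not tested.

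Itga9 read 6.71, 7.20, 7.21, 6.58 and 6.64 in brain, 7.30, 7.55, 7.73, 8.05 and 7.83 in heart, and 10.73, 10.67, 11.03, 10.63 and 10.46 in liver. The tissues did not overlap in any comparison, with brain lowest, heart between and liver highest. Means were 6.87 ± 0.31 (brain), 7.69 ± 0.28 (heart) and 10.70 ± 0.21 (liver). Brain minus heart was -0.82 ± 0.16, 1.77-fold, adjusted p = 0.000966. Against liver the difference was -3.84 ± 0.16 for brain (14.3-fold, adjusted p = 1.48e-12) and -3.01 ± 0.16 for heart (8.08-fold, adjusted p = 7.21e-11). Both genes are also known from hepatic stellate cells or from lymphatic endothelium, so the markers of those cells were read beside them. The mean of 9 stellate markers was 5.26 to 5.40 in brain arrays, 5.45 to 5.51 in heart arrays and 6.02, 5.78, 6.14, 6.14 and 5.84 in the liver arrays, and 3 of the 9 (Hgf, Lrat and Colec10) were higher in liver than in both. Ngfr, Gfap and Hand2 passed in no comparison, and Reln was higher in liver than in brain alone. Des and Colec11 were highest in heart. Des averaged 5.65 (brain), 6.03 (heart) and 5.13 (liver) and was higher in heart than in liver. Colec11 averaged 6.30 (brain), 6.75 (heart) and 6.47 (liver) and was lower in brain than in heart. Liver replicate 2 had the highest Itga8, 10.14, and the lowest stellate mean, 5.78. In the liver arrays Hgf read 8.88, 8.21, 9.22, 8.57 and 8.06, and Colec10 read 6.65, 5.32, 6.40, 6.40 and 5.30. Both were lowest in replicates 2 and 5, which also had the lowest macrophage marker means in liver, 6.12 and 5.76. The stellate mean may therefore not rank the liver arrays by stellate cells. Of 7 venous and lymphatic endothelial markers, 3 were higher in liver than in both, namely Nr2f2, Ackr1 and Flt4, the receptor of lymphatic growth factors. Flt4 averaged 7.61 (brain), 7.06 (heart) and 9.98 (liver). The lymphatic genes Prox1 and Mmrn1 averaged 4.80 (brain), 5.47 (heart) and 5.22 (liver), and 3.88 (brain), 4.04 (heart) and 3.95 (liver). The part of either cell type was not tested. Without liver replicates 1, 3 and 4, the arrays with the most macrophage markers, Itga8 was -4.23 for brain minus liver and Itga9 -3.70.

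Promoter windows of Itga8 and Itga9 are shown because these genes carry the widest tissue difference of the set, and those of Itga4 and Alcam because they are higher in brain. They run from 250 bases before to 50 bases after the annotated start, 5′ to 3′ along the gene, from RefSeq on build GRCm38.p6: Itga8 chr2:12301895-12302194 (minus strand), Itga9 chr9:118711442-118711741 (plus strand), Itga4 chr2:79255176-79255475 (plus strand) and Alcam chr16:52453032-52453331 (minus strand). Of the 36 members, 26 have such windows, 28 in all.
Itga8: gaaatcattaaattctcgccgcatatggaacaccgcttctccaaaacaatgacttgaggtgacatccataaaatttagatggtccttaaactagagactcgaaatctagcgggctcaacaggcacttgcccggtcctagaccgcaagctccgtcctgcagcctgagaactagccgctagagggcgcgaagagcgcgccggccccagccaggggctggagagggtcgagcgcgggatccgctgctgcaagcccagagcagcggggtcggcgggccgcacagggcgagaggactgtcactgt
Itga9: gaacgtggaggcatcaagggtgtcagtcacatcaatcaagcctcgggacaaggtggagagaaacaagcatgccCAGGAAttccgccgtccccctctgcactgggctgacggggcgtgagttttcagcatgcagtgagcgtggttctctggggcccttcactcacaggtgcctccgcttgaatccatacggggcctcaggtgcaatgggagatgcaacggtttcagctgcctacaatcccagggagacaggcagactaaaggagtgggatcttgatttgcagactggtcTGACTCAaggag
Itga4: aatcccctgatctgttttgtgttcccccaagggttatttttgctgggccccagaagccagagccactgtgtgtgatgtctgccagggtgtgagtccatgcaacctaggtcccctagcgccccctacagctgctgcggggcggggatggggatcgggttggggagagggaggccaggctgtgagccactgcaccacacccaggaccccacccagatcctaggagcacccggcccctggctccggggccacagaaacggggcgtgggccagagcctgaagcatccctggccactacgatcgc
Alcam: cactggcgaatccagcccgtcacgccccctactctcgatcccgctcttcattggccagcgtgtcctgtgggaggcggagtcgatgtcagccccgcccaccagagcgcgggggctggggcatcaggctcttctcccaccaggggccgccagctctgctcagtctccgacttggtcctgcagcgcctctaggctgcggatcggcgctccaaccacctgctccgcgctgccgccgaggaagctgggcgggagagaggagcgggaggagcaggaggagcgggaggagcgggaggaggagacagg
Capitals mark matches, on either strand, to 7 motifs of factors known in endothelium: CAGGAA and the longer CCGGAAG for ETS factors, TGANTCA for AP-1, CTTTGA for TCF/LEF, AGATAA for Gata2 and its relatives, and the longer motifs of NF-kB and MEF2. A further 3 searched patterns, loose forms of the NF-kB, KLF and SRF motifs, occur in 50.8%, 49.5% and 73.3% of all windows and are not marked. The windows and motifs were picked after expression values and matches had been seen. Only the Itga9 window holds marked motifs, CAGGAA beginning 177 bases before the start and TGACTCA beginning 38 bases after it. Among all 32851 mouse windows of this length, CAGGAA is in 30.6%, TGANTCA in 7.81%, CTTTGA in 16.0%, AGATAA in 11.2%, CCGGAAG in 8.86%, the NF-kB motif in 1.63% and the MEF2 motif in 0.110%. Of the 28 member windows, CAGGAA is in 10, TGANTCA in 4, CTTTGA in 4, AGATAA in 2, the NF-kB motif in 1 (Madcam1), CCGGAAG in 1 (Itga3) and the MEF2 motif in 0. A match is only a run of letters, and its absence from these 300 bases says nothing of the factor.

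**Figure D2:**
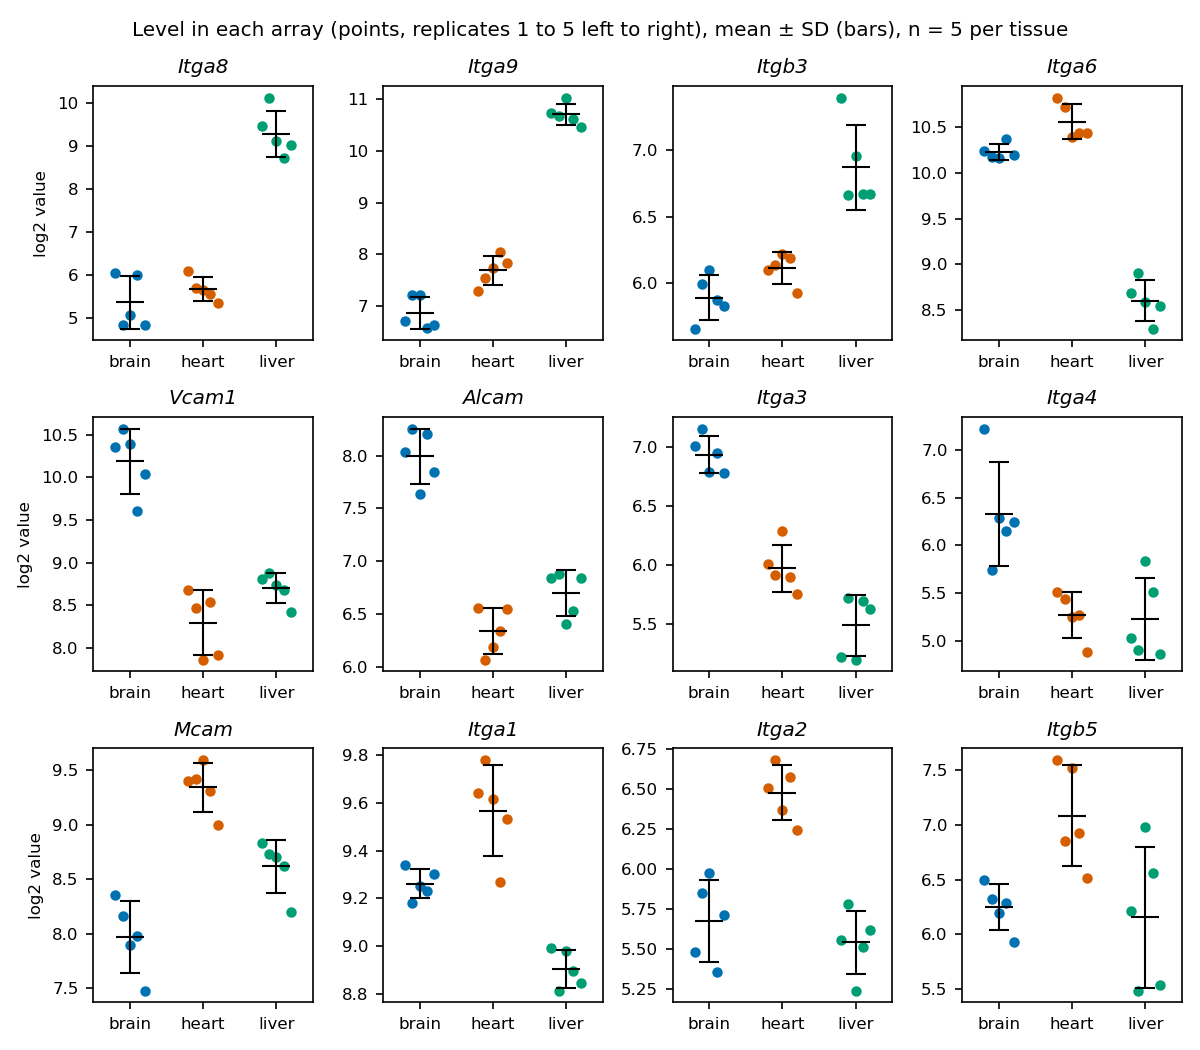
Log2 level (vertical axis, scaled separately for each gene) in each array of brain, heart and liver for 12 of the genes with the larger differences; points are arrays, bars the mean and SD over 5 arrays. All 5 liver points of Itga8 and Itga9 lie above every brain and heart point, and all 5 of Itga6 below; the brain points of Vcam1, Alcam and Itga3 lie above all others.

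Among the laminin-binding alpha subunits, Itga6 and Itga3 ran the other way, with liver lowest. Itga6, the alpha 6 chain that pairs with beta 1 or beta 4, read 10.24, 10.18, 10.16, 10.37 and 10.19 in brain, 10.82, 10.71, 10.39, 10.44 and 10.43 in heart, and 8.69, 8.91, 8.59, 8.30 and 8.55 in liver. The liver arrays lay well below all the others, and every heart array was above every brain array by a small margin. Brain minus liver was 1.62 ± 0.11, 3.08-fold, adjusted p = 2.04e-09, and heart minus liver was 1.95 ± 0.11, 3.88-fold, adjusted p = 2.29e-10. The small brain minus heart difference, -0.33 ± 0.11, sat at the threshold (adjusted p = 0.0496) and missed it under 14 of 26 alternative settings, with adjusted p between 0.0282 and 0.127.

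Itga3, the alpha chain of another laminin receptor, read 7.01, 7.16, 6.79, 6.95 and 6.78 in brain, 6.01, 5.91, 6.29, 5.90 and 5.76 in heart, and 5.22, 5.72, 5.20, 5.69 and 5.63 in liver. No 2 tissues overlapped, and the order was brain, heart, liver from high to low. Means were 6.94 ± 0.16 (brain), 5.97 ± 0.20 (heart) and 5.49 ± 0.26 (liver). Brain was 1.95-fold higher than heart (0.96 ± 0.12, adjusted p = 1.86e-05) and 2.72-fold higher than liver (1.44 ± 0.12, adjusted p = 5.58e-08). Heart minus liver was smaller at 0.48 ± 0.12 (adjusted p = 0.00711), and did not pass without liver replicates 1, 3 and 4 (0.30, adjusted p = 0.181) or without heart replicates 1 and 3 (0.37, adjusted p = 0.065). Itga7, the laminin receptor chain best known from muscle, averaged 5.75 (brain), 5.90 (heart) and 5.69 (liver) and differed in no comparison.

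Of the 4 collagen-binding chains, Itga1 and Itga2 were highest in heart. Itga1 read 9.34, 9.18, 9.25, 9.23 and 9.30 in brain, 9.64, 9.78, 9.62, 9.27 and 9.53 in heart, and 8.99, 8.81, 8.98, 8.90 and 8.85 in liver. Liver arrays lay below all brain and all heart arrays, and brain and heart overlapped only through heart replicate 4, at 9.27. Brain minus heart was -0.31 ± 0.086, 1.24-fold, adjusted p = 0.0196, brain minus liver 0.36 ± 0.086, 1.28-fold, adjusted p = 0.00444, and heart minus liver 0.66 ± 0.086, 1.58-fold, adjusted p = 1.13e-05.

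Itga2, whose product pairs with beta 1 as a collagen receptor, read 5.48, 5.85, 5.98, 5.36 and 5.71 in brain, 6.50, 6.68, 6.37, 6.57 and 6.24 in heart, and 5.56, 5.79, 5.24, 5.51 and 5.62 in liver. All heart arrays were above all brain and liver arrays, which overlapped each other. Heart differed from brain by -0.80 ± 0.13 (brain minus heart, 1.74-fold, adjusted p = 0.000163) and from liver by 0.93 ± 0.13 (heart minus liver, 1.91-fold, adjusted p = 1.78e-05). Without heart replicates 1 and 3, the arrays with the most cardiomyocyte markers, these were -0.82 and 0.96, with adjusted p = 0.0013 and 0.000218. Itga10, a collagen receptor chain of cartilage, averaged 6.28 (brain), 6.32 (heart) and 5.96 (liver), with overlapping arrays. Heart minus liver was 0.36 ± 0.12 (adjusted p = 0.0289), a call lost under 9 of 26 alternatives. Its brain minus liver difference (0.31) passed under 4, the level filter and single omissions of brain replicate 3 and liver replicates 4 and 5. Itga11, the last of the collagen group, averaged 5.32 (brain), 5.27 (heart) and 5.18 (liver) and did not pass in any comparison.

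Itga4 and Itga5 are fibronectin receptor chains, and alpha 4 with beta 1, best known from leukocytes, also binds Vcam1. Itga4 read 7.22, 5.75, 6.28, 6.15 and 6.25 in brain, 5.52, 5.44, 5.25, 5.27 and 4.88 in heart, and 5.03, 4.91, 5.83, 5.52 and 4.86 in liver. All brain arrays exceeded all heart arrays, and only liver replicate 3, at 5.83, overlapped the lowest brain array. For alpha 4, brain minus heart was 1.06 ± 0.23, 2.08-fold, adjusted p = 0.00362, and brain minus liver was 1.10 ± 0.23, 2.15-fold, adjusted p = 0.00151. The highest value, 7.22, was brain replicate 1; without it the differences were 0.84 and 0.88, with adjusted p = 0.00589 and 0.0023. That array also had the highest pericyte and smooth muscle marker mean in brain, 7.81, and the part of those cells was not tested. The mean of 10 general leukocyte markers was 5.52 to 5.82 in the brain arrays, 5.52 to 5.79 in the heart arrays and 5.87 to 7.15 in the liver arrays. Of these 10, 2 were higher and 0 lower in brain than in heart (8.29% and 7.11% of all genes). Against liver, 0 were higher and 8 lower in brain (11.1% and 14.0%). The part of leukocytes was not tested. Itga5 went the other way in brain, averaging 6.87 ± 0.25 (brain), 7.35 ± 0.15 (heart) and 7.31 ± 0.33 (liver). Brain minus heart was -0.48 ± 0.15 (adjusted p = 0.0359) and brain minus liver -0.44 ± 0.15 (adjusted p = 0.0361), with overlapping arrays in both. Those calls were lost under 10 and 8 of 26 alternatives. Itgav, the alpha chain of the vitronectin receptors, averaged 7.60 (brain), 7.43 (heart) and 7.40 (liver) and passed in no comparison.

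Itgb1, the shared beta 1 chain that pairs with most of these alpha subunits, moved little. It read 10.94, 10.38, 10.87, 10.91 and 10.92 in brain, 11.05, 11.26, 11.10, 11.33 and 11.18 in heart, and 10.94, 10.99, 11.0003, 10.90 and 11.04 in liver. Every heart array was above every brain array, brain replicate 2 being the lowest at 10.38. Brain minus heart was -0.38 ± 0.10, 1.30-fold, adjusted p = 0.0133, while brain minus liver (-0.17, adjusted p = 0.269) and heart minus liver (0.21, adjusted p = 0.134) did not pass.

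Itgb3, the beta chain of the vitronectin receptor and, with Itga2b, of the platelet fibrinogen receptor, read 5.65, 5.99, 6.10, 5.87 and 5.83 in brain, 6.09, 6.13, 6.22, 6.19 and 5.92 in heart, and 7.40, 6.66, 6.96, 6.67 and 6.67 in liver. All liver arrays exceeded all brain and heart arrays. Brain minus liver was -0.99 ± 0.13, 1.98-fold, adjusted p = 1.22e-05, and heart minus liver was -0.76 ± 0.13, 1.70-fold, adjusted p = 0.000216. Liver replicate 1 was highest at 7.40; without it the differences were -0.85 and -0.63, and both passed. Itga2b, its platelet partner, averaged 6.03 (brain), 6.06 (heart) and 6.04 (liver) and passed in no comparison. Of 8 platelet markers, 2 (Clec1b and Pf4) were higher in liver than in both other tissues, and Gp9, Gp5, Ppbp, Treml1 and Tubb1 passed in no comparison; the part of platelets was not tested.

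Itgb5, another vitronectin receptor chain, read 6.50, 6.33, 6.20, 6.28 and 5.93 in brain, 7.60, 6.85, 7.52, 6.93 and 6.52 in heart, and 6.21, 5.48, 6.98, 6.56 and 5.54 in liver. Heart was above brain in every array, and heart and liver overlapped. Brain minus heart was -0.83 ± 0.26, 1.78-fold, adjusted p = 0.0364, and heart minus liver was 0.93 ± 0.26, 1.90-fold, adjusted p = 0.012. Heart replicates 1 and 3, at 7.60 and 7.52, were highest, and they also led the heart arrays in cardiomyocyte markers (9.25 and 8.87), in pericyte and smooth muscle markers (7.96 and 7.70) and in fibroblast markers (7.54 and 7.003). Without both, neither difference passed: brain minus heart had adjusted p = 0.263 and heart minus liver was 0.61 with adjusted p = 0.125. Since the arrays left out held the highest Itgb5 values in heart, smaller differences were bound to follow. Only heart replicates 2, 4 and 5 then remained. The call for brain minus heart was also lost on leaving out any one of brain replicates 2, 3, 4 and 5 and heart replicates 1, 3 and 4, 8 of 26 alternatives in all. Without liver replicates 1, 3 and 4, heart minus liver was 1.57 and passed. Those arrays held the highest Itgb5 values in liver, so a larger difference was bound to follow. They also had the highest macrophage marker means in liver, 8.00, 8.46 and 8.13, against 6.12 and 5.76. The part of cardiomyocytes, pericytes, smooth muscle, fibroblasts or macrophages was not tested. Itgb4, Itgb6 and Itgb8, the partners of alpha 6 and of alpha v, passed in no comparison with all arrays. Itgb4 brain minus heart passed under median centring (0.29, adjusted p = 0.045), without brain replicate 3 (0.31) and without liver replicate 5 (0.27), and its brain minus liver without the same single arrays (0.28 and 0.31). Itgb6 heart minus liver (0.19) passed under limma-trend (adjusted p = 0.0349), array weights (adjusted p = 0.0248), and without heart replicate 1 or liver replicate 2 (0.23 and 0.22). Itgb8 averaged 5.89 ± 0.74 (brain), 5.55 ± 0.083 (heart) and 5.36 ± 0.24 (liver), and its brain mean holds 1 high array, brain replicate 1 at 7.20, above 5.41 to 5.76 in the other brain arrays.

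**Figure D3:**
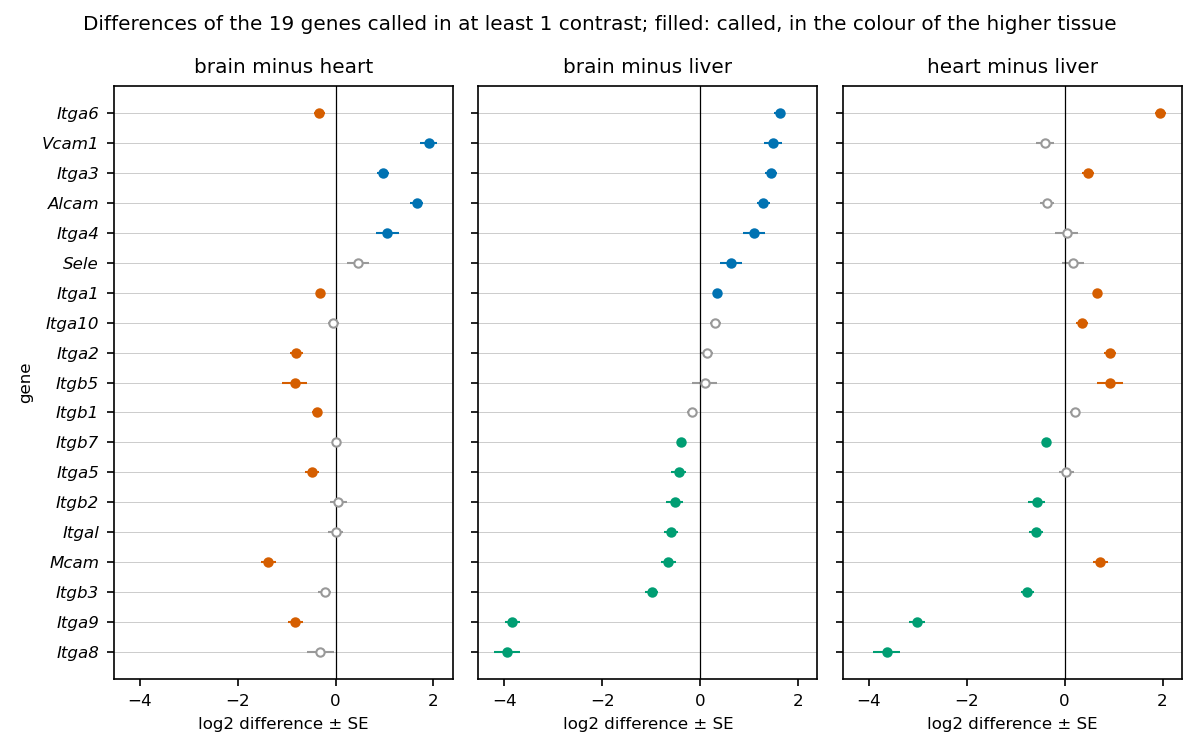
Log2 difference with its SE (horizontal axis) for the 19 genes called in at least 1 comparison, 1 panel per comparison; filled points are called, in the colour of the higher tissue (blue brain, orange heart, green liver), and open grey points are not. Itga8 and Itga9 lie farthest to the left in both comparisons with liver, and Itga6, Vcam1, Itga3 and Alcam on the positive side of brain minus liver.

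Beta 2 and beta 7 integrins are carried mainly by leukocytes, and of their chains Itgb2, Itgal and Itgb7 were higher in liver than in both other tissues. Itgb2, the common beta 2 chain, read 5.29, 5.36, 5.35, 5.50 and 5.80 in brain, 5.47, 5.36, 5.46, 5.50 and 5.24 in heart, and 6.63, 5.38, 5.98, 6.22 and 5.66 in liver. Liver replicates 1, 3 and 4 lay above every brain and heart array, and liver replicates 2 and 5 within or near them. Brain minus liver was -0.52 ± 0.17, 1.43-fold, adjusted p = 0.0371, and heart minus liver was -0.57 ± 0.17, 1.49-fold, adjusted p = 0.0201. The brain minus liver call was lost under 10 of 25 alternatives, among them single omissions of brain replicates 1, 2, 3 and 4. That of heart minus liver was lost under 3. Liver replicates 1, 3 and 4 had the highest macrophage marker means, 8.00, 8.46 and 8.13, against 6.12 and 5.76 in liver replicates 2 and 5. Of the 15 markers, 12 were higher in liver than in both other tissues. With liver replicates 1, 3 and 4 left out, Itgb2 differed by -0.06 for brain minus liver (adjusted p = 0.846). Heart minus liver was then -0.12 (adjusted p = 0.68). This omission was picked after the data had been seen. The arrays left out also held the highest Itgb2 values in liver, so a smaller difference was bound to follow. The part of macrophages was not tested.

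Itgal, the alpha chain of LFA-1, which binds the Icam family, read 4.95, 5.07, 4.99, 5.34 and 5.20 in brain, 5.19, 5.15, 4.93, 5.03 and 5.24 in heart, and 5.83, 5.35, 6.16, 5.89 and 5.24 in liver. Liver arrays were above all heart arrays, replicate 5 only just, and liver replicate 5 was below the highest brain array. Brain minus liver was -0.59 ± 0.15, 1.50-fold, adjusted p = 0.00534, and heart minus liver was -0.59 ± 0.15, 1.50-fold, adjusted p = 0.0053. Both were -0.19 without liver replicates 1, 3 and 4, with adjusted p = 0.375 and 0.373. Those arrays also held the highest Itgal values in liver, so a smaller difference was again bound to follow. Itgb7, the chain of the gut-homing receptor for Madcam1, read 5.29, 5.70, 5.41, 5.61 and 5.59 in brain, 5.45, 5.50, 5.44, 5.55 and 5.64 in heart and 5.86, 5.93, 5.96, 5.84 and 5.94 in liver, with no liver array inside the range of another tissue. Its differences were -0.38 ± 0.080, 1.30-fold, adjusted p = 0.00141 for brain minus liver and -0.39 ± 0.080, 1.31-fold, adjusted p = 0.00123 for heart minus liver. With the same 3 liver arrays left out, Itgb7 passed at -0.41 and -0.42 (adjusted p = 0.0199 and 0.0196). Itgb3 then passed at -0.78 and -0.56 (adjusted p = 0.000284 and 0.0049). The part of macrophages in any of these genes was not tested. Itgam, Itgax, Itgad and Itgae, the other leukocyte alpha chains, passed in no comparison with all arrays. Itgax brain minus heart (-0.24) passed with the replicate number as a block (adjusted p = 0.0482), and was -0.32 and -0.35 without heart replicate 1 or heart replicates 1 and 3 (adjusted p = 0.0372 and 0.0415). For brain minus liver, Itgad passed without brain replicate 5 or liver replicate 5 (0.30 and 0.32) and Itgae without heart replicate 2 (-0.29). Itgam averaged 4.32 ± 0.092 (brain), 4.27 ± 0.20 (heart) and 4.43 ± 0.33 (liver), and liver replicates 3 and 4, at 4.75 and 4.82, were its highest arrays.

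**Figure D4:**
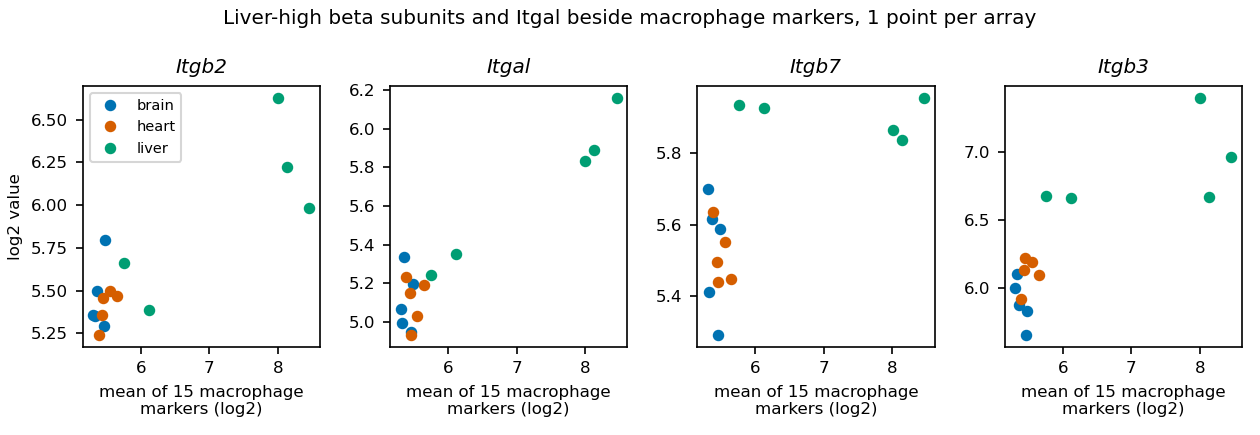
Log2 level of Itgb2, Itgal, Itgb7 and Itgb3 (vertical axis) against the mean log2 level of 15 macrophage and microglia markers in the same array (horizontal axis), 1 point per array, coloured by tissue; the genes were chosen after their values were seen. The 3 liver arrays with a marker mean of 8.00 to 8.46 hold the highest Itgb2 and Itgal values, while all 5 liver points of Itgb7 and Itgb3 lie above the other tissues.

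Of the Icam genes, the counter-receptors of beta 2 integrins, 0 of 12 tests of Icam1, Icam2, Icam4 and Icam5 met limma's adjusted threshold, and 1 had an unadjusted p under 0.05 (Icam4 for brain minus liver, 0.47, adjusted p = 0.0847). That Icam4 difference passed under 4 alternatives, and the level filter did not test this gene. It passed with the replicate number as a block (adjusted p = 0.0128) and in a limma fit of the pair of tissues alone (adjusted p = 0.0486). It also passed without heart replicate 1 or heart replicates 1 and 3 (adjusted p = 0.0251 and 0.0303). Icam2, the Icam of resting endothelium, averaged 9.11 ± 0.16 (brain), 9.10 ± 0.17 (heart) and 8.95 ± 0.19 (liver), and its brain minus heart difference was 0.0037 ± 0.11. Icam1, which inflammatory signals are known to induce, read 7.60, 7.64, 7.68, 7.46 and 7.39 in brain, 8.47, 6.94, 7.36, 6.98 and 7.22 in heart, and 7.26, 7.76, 7.22, 7.18 and 7.18 in liver. Heart replicate 1, at 8.47, stood above every other array of the 3 tissues and widened the heart range. Without it, brain exceeded heart by 0.43 (adjusted p = 0.028). Leaving out the highest heart value was bound to widen that difference. The same heart array was also highest for Icam4 in heart, 6.68, and had the highest mean of 16 NF-kB regulators in heart, 7.65, against 7.19 to 7.32; it also led in cardiomyocyte, fibroblast and pericyte markers, and the part of each was not tested. Icam5, a neuronal Icam, averaged 5.41 (brain), 5.48 (heart) and 5.33 (liver).

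Vcam1, the endothelial ligand of alpha 4 beta 1, read 10.36, 10.56, 10.40, 9.60 and 10.04 in brain, 8.68, 8.47, 7.86, 8.54 and 7.91 in heart, and 8.81, 8.88, 8.74, 8.67 and 8.42 in liver. Every brain array was above every heart and liver array, and heart and liver overlapped. Means were 10.19 ± 0.38 (brain), 8.29 ± 0.38 (heart) and 8.70 ± 0.18 (liver). The brain minus heart difference was 1.90 ± 0.18, 3.73-fold, adjusted p = 5.28e-07, and brain minus liver was 1.49 ± 0.18, 2.81-fold, adjusted p = 5.39e-06; heart minus liver, at -0.41, did not pass (adjusted p = 0.112). Sele, the endothelial selectin, read 6.45, 6.63, 7.53, 6.44 and 6.81 in brain, 6.80, 6.33, 6.18, 6.10 and 6.16 in heart, and 5.88, 6.93, 5.98, 6.10 and 5.80 in liver. Brain replicate 3 (7.53) and liver replicate 2 (6.93) were the highest arrays of their tissues, and the tissues overlapped. Only brain minus liver passed, at 0.63 ± 0.22, 1.55-fold, adjusted p = 0.0471, and it missed the threshold under 16 of 26 alternatives, with adjusted p between 0.00376 and 0.485. Madcam1, a mucosal addressin, averaged 5.41 (brain), 5.41 (heart) and 5.39 (liver), and Glycam1, a mucin of lymph node venules, averaged 4.81 (brain), 4.79 (heart) and 4.64 (liver). Both passed in no comparison.

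Alcam, an adhesion molecule that binds CD6 on T cells, read 8.03, 8.26, 7.63, 8.20 and 7.84 in brain, 6.56, 6.07, 6.19, 6.34 and 6.54 in heart, and 6.84, 6.88, 6.41, 6.53 and 6.84 in liver. All brain arrays exceeded all others by a wide margin. For Alcam, brain minus heart was 1.65 ± 0.14, 3.15-fold, adjusted p = 6.22e-08, and brain minus liver was 1.29 ± 0.14, 2.45-fold, adjusted p = 7.04e-07. Heart minus liver was -0.36 (adjusted p = 0.0566) and passed under 8 alternatives. Mcam (CD146), a junctional adhesion molecule of endothelium that pericytes also carry, had the opposite order, with heart highest. It read 8.36, 8.16, 7.90, 7.98 and 7.48 in brain, 9.40, 9.42, 9.60, 9.31 and 8.9955 in heart, and 8.84, 8.73, 8.71, 8.62 and 8.20 in liver. Heart arrays lay above all brain and liver arrays, and brain overlapped liver. Its brain minus heart difference was -1.37 ± 0.15, 2.59-fold, adjusted p = 3.56e-06, brain minus liver -0.65 ± 0.15, 1.56-fold, adjusted p = 0.00405, and heart minus liver 0.73 ± 0.15, 1.65-fold, adjusted p = 0.00163. Without liver replicates 1, 3 and 4, brain minus liver was -0.49 and did not pass (adjusted p = 0.152). Leaving out heart replicates 1 and 3 gave -1.27, -0.65 and 0.62 for the same comparisons, and all 3 passed. The pericyte and smooth muscle marker mean was 7.81, 6.30, 6.70, 6.88 and 6.08 in the brain arrays, 7.96, 7.29, 7.70, 7.19 and 6.60 in the heart arrays and 5.95 to 6.07 in the liver arrays. Within brain, replicate 1 led and replicate 5 was lowest both in that mean and in Mcam, and within heart replicate 5 was lowest in both; the part of mural cells was not tested.

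Among the matrix ligands of integrins, Fn1 had the widest tissue difference. Of 24 such genes measured, 7 were higher and 7 lower in brain than in heart, 11 were higher and 4 lower in brain than in liver, and 12 were higher and 2 lower in heart than in liver. Their median log2 difference was -0.016, 0.54 and 0.43 in the 3 comparisons. Of all genes, 8.29% were higher and 7.11% lower in brain than in heart. Against liver, brain had 11.1% of all genes higher and 14.0% lower, and heart 11.5% higher and 16.3% lower. Counts of this list and of those below were not tested against these shares. Fn1 (fibronectin, a ligand of alpha 4, alpha 5, alpha 8 and alpha v) averaged 11.58 ± 0.081 (brain), 9.49 ± 0.24 (heart) and 6.27 ± 0.27 (liver). Npnt (nephronectin, a ligand of alpha 8) was higher in brain than in heart (0.74, adjusted p = 9.66e-05) and than in liver (0.94, adjusted p = 2.9e-06), while Itga8 was higher in liver than in both. Emilin1, a ligand of alpha 9, averaged 5.99 (brain), 6.33 (heart) and 7.03 (liver), higher in liver than in both, as Itga9 was. Tnc (tenascin C) averaged 5.50 (brain), 5.81 (heart) and 5.42 (liver). Laminin chain Lama4 averaged 8.91 (brain), 10.13 (heart) and 9.96 (liver), and Lama5 7.43 (brain), 6.86 (heart) and 6.69 (liver).

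Inside the cell, 24 integrin activators and adaptors gave 1 gene higher and 7 lower in brain than in heart. Against liver, 5 were higher and 7 lower in brain, and 5 higher and 4 lower in heart. The shares of all genes were 8.29% and 7.11%, 11.1% and 14.0%, and 11.5% and 16.3% in the same order. Lims2 (PINCH2, an adaptor of the Ilk complex) averaged 8.10 (brain), 8.55 (heart) and 6.54 (liver), Parvb (beta-parvin of the same complex) 9.65 (brain), 8.11 (heart) and 8.31 (liver), and Tns3 (a tensin) 6.15 (brain), 6.66 (heart) and 7.70 (liver). Itgb1bp1 (ICAP1, which binds the beta 1 tail) averaged 8.03 (brain), 8.87 (heart) and 8.91 (liver). Of 19 selectin ligands and the enzymes that make them, 4 were higher and 3 lower in brain than in heart, 6 higher and 5 lower in brain than in liver, and 6 higher and 3 lower in heart than in liver. Cd34, a sialomucin of endothelium, averaged 11.18 (brain), 10.99 (heart) and 8.43 (liver), and St3gal4, a sialyltransferase that makes selectin ligands, averaged 6.70 (brain), 7.17 (heart) and 9.76 (liver).

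Of 14 junctional molecules of leukocyte passage, 2 were higher and 4 lower in brain than in heart, 5 and 5 against liver, and heart had 4 higher and 4 lower than liver. Bsg (basigin) averaged 11.43 (brain), 8.95 (heart) and 9.05 (liver) and Jam3 5.51 (brain), 7.60 (heart) and 6.54 (liver). Aoc3 (VAP-1, an amine oxidase that supports leukocyte adhesion) averaged 5.47 (brain), 7.04 (heart) and 4.64 (liver). Of 11 linkers of the Icam and Vcam1 tails, 2 were higher and 3 lower in brain than in heart, 5 higher and 1 lower in brain than in liver, and 6 higher and 2 lower in heart than in liver; Rdx (radixin) averaged 10.37 (brain), 10.26 (heart) and 9.47 (liver). Of 16 NF-kB regulators, which act on Icam1, Vcam1 and Sele, 3 were higher and 2 lower in brain than in heart. Against liver, 3 were higher and 4 lower in brain, and 1 higher and 4 lower in heart. Among these regulators Tlr4 averaged 5.57 (brain), 7.04 (heart) and 7.93 (liver). Tnfrsf1b, a receptor for tumour necrosis factor, averaged 7.28 (brain), 6.76 (heart) and 6.11 (liver). For the 3 lists of this paragraph too, the shares of all genes were 8.29% and 7.11%, 11.1% and 14.0%, and 11.5% and 16.3%.

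The remaining 17 members passed in no comparison. Their tissue means spanned between 0.014 and 0.53 log2 units, with Itgb8 the widest and Madcam1 the narrowest. By group, 10 of the 18 alpha subunits, 5 of the 8 beta subunits, 0 of the 4 Icam genes, Sele and 3 of the 5 other molecules differed somewhere, beside 37.8% of all genes. Itga1, Itga3, Itga6, Itga9 and Mcam differed in all 3 comparisons. Of 108 gene and tissue-pair differences, 40 were called, and 14 of those were at least 1 log2 unit in size. Of all genes, 15.4% were called between brain and heart, 25.1% between brain and liver and 27.8% between heart and liver. No share of all genes is given for calls in all 3 comparisons or for that size, so these counts are descriptive only.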

How the data were processed

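Each array measured RNA of 1 pool of sorted cells on an Affymetrix mouse gene array. The authors deposited 1 table of log2 values per probe set, made with RMA in Affymetrix Power Tools, per the submitters' processing notes; the sources used here do not state versions or a genome build. All 15 columns were matched to their samples by title. Of 35556 probe sets, 21789 carry 1 gene symbol in the platform annotation, 1621 carry several and 12146 are not named here; only the first kind was used. The probe set with the highest mean stands for a gene. Left out are 3 probe sets that name Itgam together with another gene.

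Fits used limma 3.58.1 (lmFit and eBayes, R 4.3.3) with 1 mean per tissue over all 15 arrays, 12 residual degrees of freedom, and Benjamini-Hochberg adjustment over 19938 genes in each comparison, at a threshold of 0.05. The procedure was tested on simulated data. Tables were made with Python 3.11.15 and pandas 2.3.3. Every gene of the set may be named; of the neighbouring gene lists, up to 3 genes per list with the largest called difference and those tied to a called member as ligand or adaptor, and marker genes with their level. The members, gene lists and marker lists were chosen with earlier results of these data known. Replicates are separate pools of mice. Their number, 5 per tissue, limits the precision, and arrays give no counting error. Alternatives covered the replicate number as a block, limma-trend, robust and array-weighted fits, pairwise fits, averaged probe sets, a level filter, 2 centrings, a fold minimum and arrays left out. Sequences are from RefSeq, build GRCm38.p6.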

Additional observations from a re-analysis of the deposited data

Results flagged for a closer look

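In 9 of 108 groups of 5 arrays, 1 gene in 1 tissue, a single array stood apart by Dixon's test, its gap to the next array exceeding 0.71 of the group's range. Chance alone gives such a gap in about 1 in 20 groups. Liver replicate 2 was the far array 3 times: it was high for Icam1 (7.76) and Sele (6.93) and low for Itgav (6.92). Heart replicate 1 was high for Icam1 (8.47) and Icam4 (6.68). Heart replicate 3 was low for Itgav (7.15). Brain replicate 1 was high for Itgb8 (7.20), and brain replicate 2 was low for Itgb1 (10.38). Liver replicate 5 was high for Itgb4 (6.84). The cause of these values was not tested.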

How the results depend on the processing

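No called difference changed sign in any alternative. Of the 40 called differences, 26 passed in every alternative except the minimum log2 difference of 1, and 14 passed in that one too; 9 were lost when some single array was left out. With the minimum, 1 member was lower in brain than in heart, 2 lower in brain than in liver, 1 higher and 2 lower in heart than in liver, 0 lower in brain than in both other tissues, 0 higher in heart than in both, 2 higher in liver than in both and 1 lower in liver than in both. The level filter tested 18 members, with 5 lower in brain than in liver and 3 higher in liver than in both.

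Alcam became lower in heart than in both tissues, making that count 1 in place of 0, under the replicate block, the pairwise fit, the level filter and median centring. The replicate block kept 39 of the 40 calls and lost Sele for brain minus liver (adjusted p = 0.0616), and it added 3: Icam4 for brain minus liver (adjusted p = 0.0128), Itgax for brain minus heart (adjusted p = 0.0482) and Alcam for heart minus liver (adjusted p = 0.0379). The labels do not say what the number marks, and for that reason it was not taken as a pairing. Of 15 same-numbered pairs, 6 had deviations from the tissue means that correlated above 0.1 (range -0.0005 to 0.20). The mean was 0.10 for the same number and -0.025 for different numbers. Deviations sum to 0 within a tissue, so the second mean follows from the first. In 20 of 30 cases an array correlated best with its own number, a hint of something shared that comes from the data and not from the design. Differences not called with all arrays passed under some alternative for Icam1, Icam4, Itga10, Itgad, Itgae, Itgax, Itgb1, Itgb4, Itgb6 and Alcam; for Itgb1 it was heart minus liver without brain replicate 2 (0.21, adjusted p = 0.0327).

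With each array left out in turn, counts ran from 4 to 5 higher and 5 to 8 lower in brain than in heart, 6 to 9 higher and 6 to 9 lower in brain than in liver, and 6 to 8 higher and 5 to 7 lower in heart than in liver. They ran from 4 to 5 higher and 2 to 3 lower in brain than in both, 3 to 5 higher and 0 to 1 lower in heart than in both, and 5 to 6 higher and 3 to 4 lower in liver than in both. The low of 5 lower in brain than in heart came without brain replicate 3 or 5 or heart replicate 2 or 4, and the low of 3 higher in heart than in both without these or heart replicate 1. Without heart replicates 1 and 3 together, 5 were lower in brain than in heart, 4 higher in heart than in liver and 2 higher in heart than in both. Leaving out liver replicates 1, 3 and 4 was a choice made after seeing the data and keeps only liver replicates 2 and 5. In that setting 4 were lower in brain than in liver and 1 lower in brain than in both. For single genes, Itga1 and Itga3 each lost 1 small difference under 2 alternatives of 26, and Mcam brain minus liver under 1, apart from the minimum. Shifts of all genes under centring on endothelial markers stayed between -0.07 and 0.062. Where the cause is not the number of arrays or genes, it was not tested. Detection calls were not used here, so genes with low values have no stated floor.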
